A study of Rattus norvegicus with 6 samples.

Results

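The small heat shock proteins are a family of chaperone genes, taken here as the 7 genes Hspb1, Hspb2, Hspb3, Cryab, Hspb6, Hspb7 and Hspb8, together with Bag3, the co-chaperone that ties them to Hsp70. These 8 genes were found by the RefSeq transcript of each probe, 8 of 15645 named genes on the array, and they had 10 probes in all. The family was selected on earlier results of the same contrast, in which Hspb1 and Cryab read higher in treated rats, and its other members were added by gene name. The differences between the groups below are therefore a description of these arrays and not a test. The RNA came from renal cortex of male rats of the Sprague-Dawley stock Crl:CD(SD), 5 weeks old when bought, and each rat had its own one-colour Agilent array. Dipropylene glycol (DPG), a solvent, was given to 3 rats at 1000 mg/kg/day, and 3 control rats received water, both for 4 weeks. The rats of a group are biological replicates per the labels, and both groups had the same basal diet and free tap water.

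Small heat shock proteins bind unfolding proteins without using ATP and hold them in a state from which Hsp70 can refold them. They assemble into large oligomers through a shared alpha-crystallin domain. In cells under heat, oxidative or osmotic stress, heat shock factor HSF1 switches on some of these genes through heat shock elements, which are inverted repeats of GAA and TTC units. In the kidney Hspb1 and Cryab are best known from the medulla, where cells face high salt and urea, while several other members are known chiefly from muscle.

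The promoters of the members are shown first, because heat shock elements are a known route to induction of some of these genes. RefSeq windows of the GRCr8 build, running from 250 bases before to 50 bases after each annotated start, were matched for 6 of the 8 genes (Hspb1, Hspb3, Hspb6, Hspb7, Hspb8 and Bag3). Pairs of units, GAANNTTC or TTCNNGAA, were searched. Each of these motifs is its own reverse complement, so both strands were covered, and overlapping matches were allowed. Such a pair stood in 4 of the 6 windows (Hspb1, Hspb6, Hspb8 and Bag3), against 15.4% of 27457 windows of the same length. It stood in 13 of 20 windows of heat shock factor and chaperone genes, a share much like that of the members. A run of 3 alternating units was in 0 of the 6 windows, in 6 of 20 windows of heat shock factor and chaperone genes, and in 0.736% of all windows. In the lines below the capitals mark the pairs, and each sequence reads 5′ to 3′ along the strand of its gene. The Hspb1 window lies at chr12:26432252-26432551 on the minus strand, and the Bag3 window at chr1:192533210-192533509 on the plus strand. The Hspb6 and Hspb8 stretches, cut to 60 bases around the pair nearest the start, lie at chr1:94934197-94934256 and chr12:45837259-45837318, both on the plus strand.
Hspb1: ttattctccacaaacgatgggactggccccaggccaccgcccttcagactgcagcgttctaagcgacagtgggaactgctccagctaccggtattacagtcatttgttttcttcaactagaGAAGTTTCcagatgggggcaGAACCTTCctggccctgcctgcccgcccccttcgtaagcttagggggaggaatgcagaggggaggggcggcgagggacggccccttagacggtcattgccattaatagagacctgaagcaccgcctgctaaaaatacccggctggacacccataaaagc
Bag3: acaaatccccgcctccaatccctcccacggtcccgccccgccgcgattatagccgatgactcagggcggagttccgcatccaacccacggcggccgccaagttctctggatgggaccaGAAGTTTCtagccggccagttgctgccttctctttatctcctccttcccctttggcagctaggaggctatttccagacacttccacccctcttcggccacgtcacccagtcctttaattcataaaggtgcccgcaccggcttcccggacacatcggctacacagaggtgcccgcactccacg
Hspb6: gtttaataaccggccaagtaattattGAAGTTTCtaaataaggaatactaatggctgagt
Hspb8: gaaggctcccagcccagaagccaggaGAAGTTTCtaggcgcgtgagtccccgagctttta

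The pair in all 4 windows had the same 8 letters, GAAGTTTC, a resemblance seen after the sequences were read. On the strand of the gene these letters occur in 0.830% of all windows. They begin 129 bases before the annotated start of Hspb1, 132 before that of Bag3, 149 before that of Hspb6 and 23 before the start used for Hspb8, whose window lies inside the annotated span of the gene. Hspb1 and Hspb6 each held a second pair, and the windows of Hspb3 and Hspb7 held none. A match in these windows is a description of the letters and not of factor binding.

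Signals are given as ratios to the 75th percentile of the array, so that a value of 1 equals that percentile, and differences are on the log2 scale, DPG minus water. A probe's signal depends on its own sequence, so levels are compared between rats and not between genes. Of the 10 member probes, 9 were kept, being well above background throughout the 3 arrays of DPG or of water. Among these 9 probes, 7 read higher and 2 lower in DPG rats, with a median difference of 0.21, where the median over all 40383 kept probes was 0.00. With limma and Benjamini-Hochberg adjustment over all kept probes, 0 of the 9 passed at an adjusted p of 0.05, as did 0% of all probes, and the smallest member value was an adjusted p of 0.187 for Hspb1. At an unadjusted p of 0.05, 4 of the 9 passed, all higher in DPG (1 for Hspb1, 1 for Cryab and both for Hspb2), against 12.4% of all probes. Without DPG rat 1 or without DPG rat 2 it was 2, Hspb1 and Cryab. For 5 of the 9, the same probes and Bag3, every DPG array lay above every water array, and groups lay apart in one direction or the other for 19.7% of all probes. Since the family was selected on this contrast, nothing is read from these shares.

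**Figure D1:**
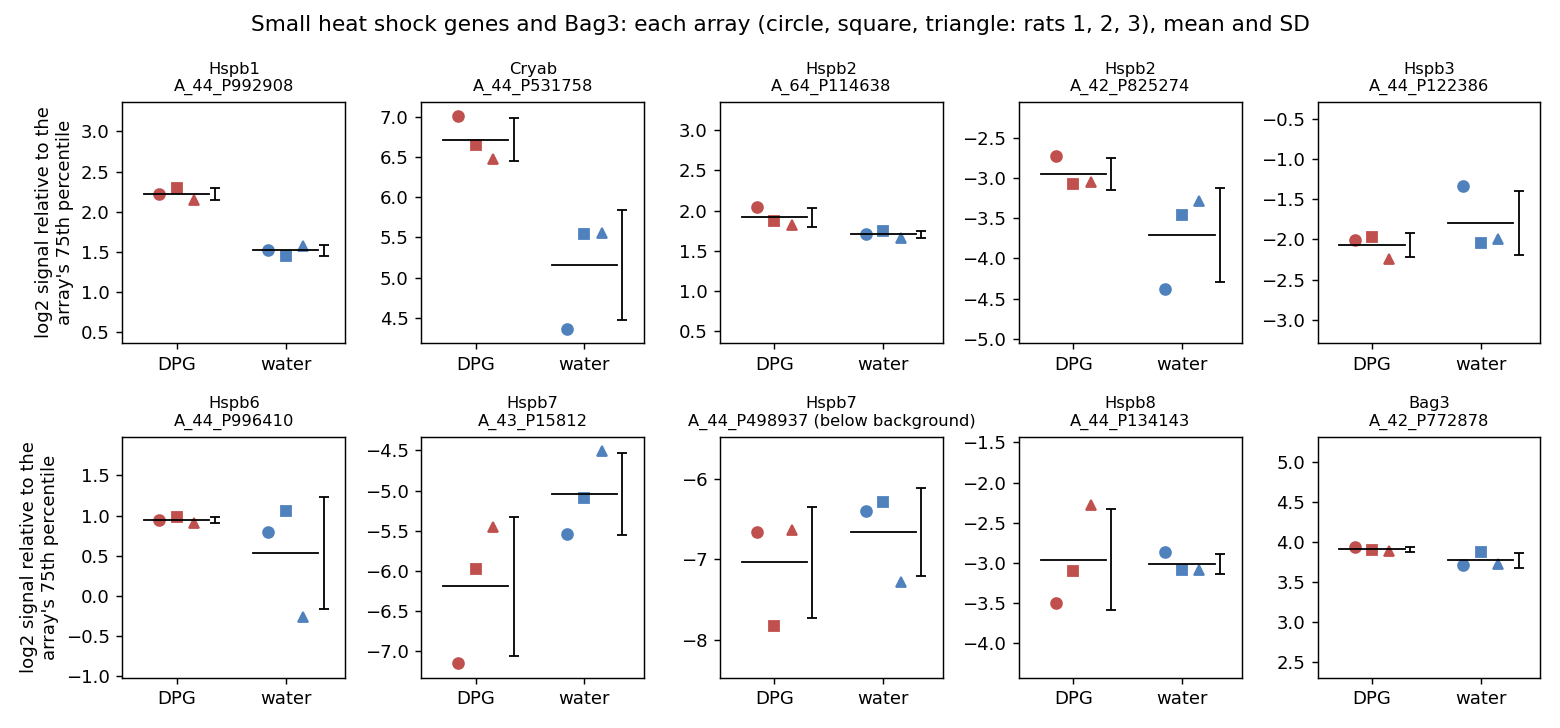
Log2 signal relative to the 75th percentile of the array (vertical axis, one scale per panel) for each of the 10 probes of the 8 genes, with 3 DPG arrays in red left of 3 water arrays in blue. Lines are group means and bars SDs; the Hspb1 and Cryab groups lie apart, and water rat 1 stands low for Cryab and for 1 of the Hspb2 probes.

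Before the members are taken in turn, the arrays and tissue are described. Between 39556 and 43184 of 61537 probes per array were well above background, lowest in water rat 3, which also had 34 spots with outlier flags, against at most 4 on any other array. All 3 DPG arrays shared 1 slide and scan, and all 3 water arrays another, so treatment cannot be told apart from slide or scan. Markers of the convoluted proximal tubule (8 of 8) and podocytes (6 of 6) were kept, and so were those of the thick ascending limb (8 of 8), straight proximal tubule (5 of 5), and collecting duct and inner medulla (10 of 10). Of 13 skeletal and cardiac muscle markers 7 were kept, and the heavy chain genes Myh1, Myh2, Myh4 and Myh6 were among those not kept, with Actn2. In bulk tissue, more cells of one type and more RNA per cell cannot be told apart.

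Hspb1, which encodes the chaperone Hsp25, a stabiliser of actin filaments that is phosphorylated under stress, read higher in each DPG rat than in any water rat. Its signal was 4.66, 4.90 and 4.44 in the DPG rats, against 2.89, 2.72 and 2.99 in the water rats. The rats of a group lay close together, with the highest 1.1 times the lowest in each group. The means were 4.66 ± 0.228 in DPG rats and 2.87 ± 0.134 in water rats (SD, n = 3 each), a 1.63-fold ratio of geometric means and a log2 difference of 0.70 ± 0.07 (SE). Leaving out each rat in turn kept the difference between 0.66 and 0.74.

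Cryab, the alpha-B crystallin gene, first known from the lens and a partner of desmin and other intermediate filaments, had the widest difference. The ratios were 129, 101 and 89.4 in the DPG rats, against 20.6, 46.6 and 47.1 in the water rats. All DPG rats were above all water rats, but water rat 1 stood well below the other water rats. The group means were 106 ± 20.4 in DPG rats and 38.1 ± 15.2 in water rats (SD, n = 3 each), 2.95-fold apart as geometric means, with a log2 difference of 1.56 ± 0.35 (SE). Without water rat 1 the difference was 1.16 ± 0.17, smaller and with a smaller error, and the groups still lay apart. Before scaling between arrays, the probe's background-subtracted and detrended intensity was 114599, 85755 and 76748 in DPG rats and 19156, 42200 and 40124 in water rats, with no spot saturated.

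The order of the rats for Cryab was shared with a marker of the straight proximal tubule. Slc7a13, an amino acid transporter gene of that segment, read 326, 314 and 288 in DPG rats and 141, 202 and 205 in water rats, so water rat 1 was again lowest and DPG rat 1 highest. It had a log2 difference of 0.78 ± 0.16 (SE), and over the 6 arrays its Pearson correlation with Cryab was 0.996, the third highest of 11923 genes. The summed signal of the 5 straight proximal tubule markers, of which Slc7a13 made up most, was 310 to 346 in DPG rats and 152 to 221 in water rats. Their median difference was 0.58, with 4 of 5 above 0, among them the angiotensinogen gene Agt (0.58 ± 0.16). The 8 thick ascending limb markers summed to 837 to 917 in DPG rats and 716 to 775 in water rats, with a median difference of 0.26, and the smallest p were those of Cldn16 (0.70 ± 0.06) and Umod (0.25 ± 0.07). The 8 convoluted proximal tubule markers had a median of -0.16, and their sums were 988 to 1067 in DPG rats and 1067 to 1201 in water rats, with Slc5a12 at -0.29 ± 0.08 and Slc22a8 at -0.23 ± 0.07. The part of these segment markers in the Cryab and Hspb1 differences was not tested. The sums of the 10 collecting duct and inner medulla markers overlapped, at 166 to 219 in DPG rats and 181 to 208 in water rats. Of these sums Aqp2 alone made up 81.9 to 117 in DPG rats and 70.3 to 96.6 in water rats. Their median difference was -0.08, and for 3 of the 10 the groups did not overlap. Among those 3 were Aqp4 (0.29 ± 0.09), whose 4 kept probes ran from -0.25 to 0.35, and Slc26a4 (-0.40 ± 0.13).

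**Figure D2:**
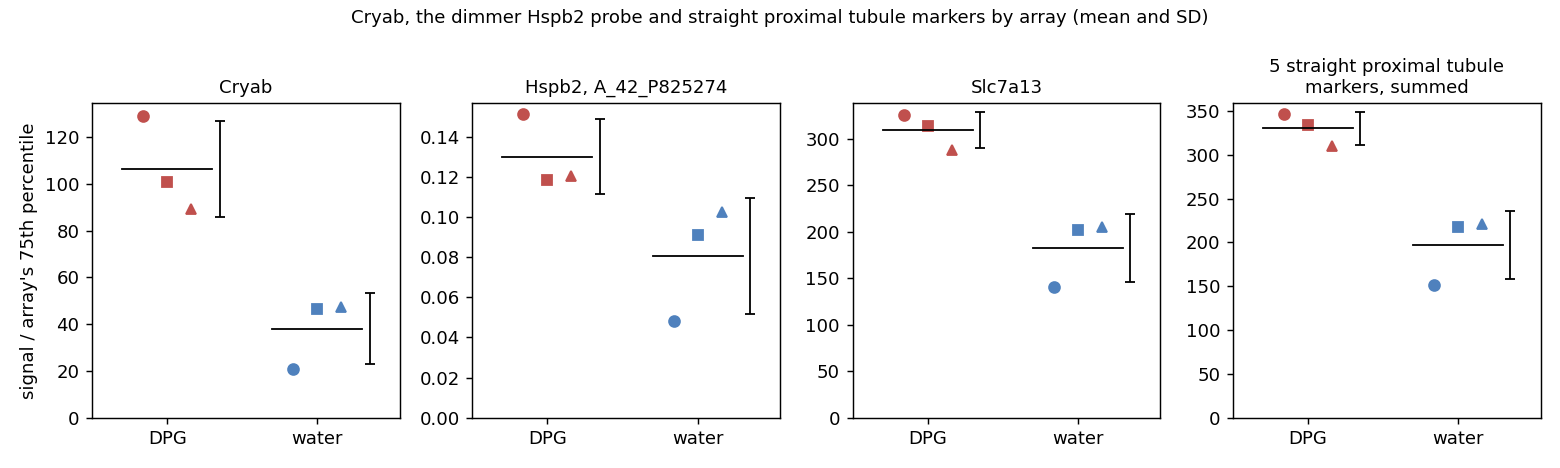
Signal as a ratio to the 75th percentile of the array (vertical axis from 0) for Cryab, the dimmer Hspb2 probe, Slc7a13 and the sum of 5 straight proximal tubule markers, by array, DPG left of water, with means and SDs; circle, square and triangle are rats 1, 2 and 3. Water rat 1 is the lowest point and DPG rat 1 the highest in all 4 panels. The sum is mostly Slc7a13, so the last 2 panels are not separate. The brighter Hspb2 probe, not shown, was lowest in water rat 3.

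By Pearson correlation the genes whose pattern over the 6 arrays was most like that of Cryab were Kcnn4 (r = 0.997), Tnxa-ps1 (0.996), Slc7a13, Tgfbi (0.995) and Tmem184a (0.995). Those most like Hspb1 were Ankib1 (0.995), Ctu1 (0.993), Aimp2 (0.992), Notch4 (0.991) and S100a13 (0.991). These values hold the difference between the groups and rest on 6 arrays, and 328 genes for Cryab and 329 for Hspb1 had an r over 0.9. Between Hspb1 and Cryab themselves r was 0.87.

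Hspb2, which encodes a partner of Hspb3 in muscle, is the neighbour of Cryab in the genome, and RefSeq gives the pair overlapping spans. Its brighter probe (A_64_P114638) read 4.14, 3.66 and 3.53 in DPG rats, against 3.28, 3.35 and 3.15 in water rats. Its dimmer probe (A_42_P825274) read 0.151, 0.118 and 0.120 in DPG rats, against 0.0480, 0.0909 and 0.103 in water rats. Both probes kept the groups apart, but by different amounts, with log2 differences of 0.21 ± 0.08 (SE) for the brighter and 0.76 ± 0.30 for the dimmer probe. Without water rat 1 the dimmer probe had 0.42 ± 0.14. With normexp background correction it had 0.33 ± 0.13 and the brighter probe 0.19 ± 0.08, so the gap between the probes was smaller there. Over the 6 arrays the dimmer probe had an r of 0.96 with Cryab and the brighter one an r of 0.79. Whether the dimmer probe also binds RNA of Cryab was not tested.

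Hspb3, a member known from skeletal and cardiac muscle, read 0.248, 0.256 and 0.211 in DPG rats and 0.397, 0.241 and 0.250 in water rats. The groups overlapped, and only water rat 1 was high. The log2 difference of -0.28 ± 0.21 (SE) became -0.05 ± 0.11 without that rat.

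Hspb6, which encodes Hsp20, a chaperone of smooth muscle tied to its relaxation, read 1.92, 1.98 and 1.87 in DPG rats, against 1.73, 2.08 and 0.836 in water rats. The DPG rats were within 1.06-fold of each other, and water rat 3 was the low one of the water group. The difference was 0.41 ± 0.33 (SE), and 0.02 ± 0.11 without water rat 3. The 8 kept markers of smooth muscle and pericytes overlapped between the groups as well, with sums of 24.7 to 29.1 in DPG rats and 24.7 to 29.5 in water rats and a median difference of 0.01. Tagln (0.38 ± 0.17) and Myl9 (0.14 ± 0.10) had the smallest p among them, and Cnn1 and Lmod1 were not kept.

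Hspb7, a heart and muscle member, was at the limit of detection in the cortex. One of its 2 probes (A_44_P498937) was not well above background on any of the 6 arrays. The other (A_43_P15812) was well above background on 1 of 3 DPG arrays and on 3 of 3 water arrays, with ratios of 0.00706, 0.0159 and 0.0228 in DPG rats and 0.0216, 0.0294 and 0.0439 in water rats. The lowest water rat lay below the highest DPG rat, so the groups overlapped. Its log2 difference of -1.15 ± 0.48 (SE) was -0.24 ± 0.10 with normexp background correction.

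Hspb8, the small heat shock protein that joins Bag3 in clearing misfolded proteins, read 0.0886, 0.116 and 0.207 in DPG rats and 0.137, 0.118 and 0.118 in water rats. DPG rat 1 was the lowest and DPG rat 3 the highest of the 6, with the water rats between them. The difference was 0.05 ± 0.31 (SE), and its sign turned without DPG rat 3 (-0.29 ± 0.15) and with normexp background correction (-0.000143), and it was 0.32 ± 0.26 without DPG rat 1. Bag3, which hands clients of small heat shock proteins to Hsp70 and to autophagy, read 15.4, 14.9 and 14.8 in DPG rats and 13.1, 14.6 and 13.2 in water rats. The groups did not overlap, yet the gap between DPG rat 3 and water rat 2 was narrow, and the difference was 0.14 ± 0.07 (SE), a 1.1-fold ratio.

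**Figure D3:**
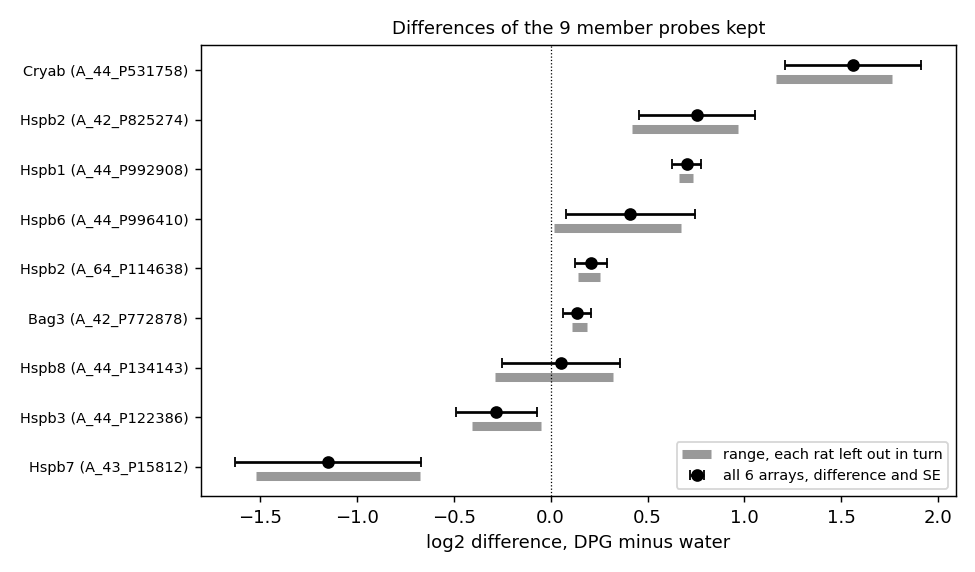
Log2 difference, DPG minus water (horizontal axis), for the 9 member probes kept; points with bars are the difference and its SE over all 6 arrays, and grey bars span the values with each rat left out in turn. Cryab is highest at 1.56, Hspb7, near background in DPG rats, is lowest at -1.15, and the grey bar of Hspb8 crosses 0.

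Set side by side, the spread between rats differed between members. Among water rats the highest signal was 2.29 times the lowest for Cryab, 2.49 times for Hspb6, 2.13 times for the dimmer Hspb2 probe and 1.64 times for Hspb3. It was 1.1 times for Hspb1, 1.12 times for Bag3 and 1.06 times for the brighter Hspb2 probe. Among DPG rats the same ratio was 1.44 for Cryab, 1.06 for Hspb6, 2.33 for Hspb8 and 1.04 for Bag3.

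The other genes of the heat shock response, on the brightest kept probe of each gene, are given for context. Over 11924 named genes 7.19% read higher and 5.27% lower in DPG at an unadjusted p of 0.05, and the median difference was 0.01. Of 23 measured heat shock factors and inducible chaperones, 6 passed that p on the higher side and 0 on the lower, with a median of 0.10. They were the testis-rich Hsp70 gene Hspa2 (0.76 ± 0.12), Chordc1 (0.37 ± 0.09), Serpinh1 (0.26 ± 0.07), the inducible Hsp70 gene Hspa1a (1.13 ± 0.35), the master regulator gene Hsf1 (0.24 ± 0.10) and the Hsp40 gene Dnaja1 (0.21 ± 0.08). Hspa1a read 0.366, 0.682 and 0.266 in DPG rats and 0.151, 0.219 and 0.191 in water rats, so its groups did not overlap, and DPG rat 2 was highest. Cryab was highest in DPG rat 1, and both genes were lowest in water rat 1. The stress-inducible Hsp90 gene Hsp90aa1 had 0.13 ± 0.13. Hspa1b and Dnajb1 had no probe named through a RefSeq transcript and were not analysed here.

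Of 9 measured BAG family genes and BAG3 partners, 2 passed an unadjusted p of 0.05 on the higher side and 0 on the lower, with a median of 0.10. Bag4 had 0.39 ± 0.13, though its other probe had -0.21. Hspa8, the constitutive Hsp70 partner of Bag3, had 0.23 ± 0.09, and its 8 probes lay between 0.21 and 0.36. Of 6 tonicity genes, 2 passed on the higher side and 0 on the lower, with a median of 0.44. These were Slc6a12, the betaine transporter gene (0.46 ± 0.11), and Nfat5, the transcription factor of the response to high salt (0.21 ± 0.08), whose 4 probes ran from -0.30 to 0.30. The mean shift of the 6 genes was 0.53, 0.55 and 0.06 in DPG rats and -0.07, 0.12 and -0.05 in water rats on the log2 scale, so DPG rat 3 lay among the water rats. Among 7 filament and actin genes, whose proteins are clients of the family, the filamin gene Flna was higher (0.36 ± 0.09) and the keratin gene Krt8 lower (-0.28 ± 0.08) at that p, and the median was 0.01. The desmin gene Des, partner of Cryab in muscle, had -0.08 ± 0.10. Of the other small heat shock genes, Cryaa, the alpha-A crystallin gene of the lens, had -0.66 ± 0.24, and Hspb9 had -0.37 ± 0.79. Cryaa was well above background on 1 of 3 DPG arrays and 3 of 3 water arrays. Its difference, and its place in the count of list genes below, rest on DPG values near background. With each rat left out in turn, between 7 and 15 of these lists' genes passed an unadjusted p of 0.05, against 13 with all rats, and the lowest count was without water rat 2. It was 8 without DPG rat 1 and without DPG rat 2.

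**Figure D4:**
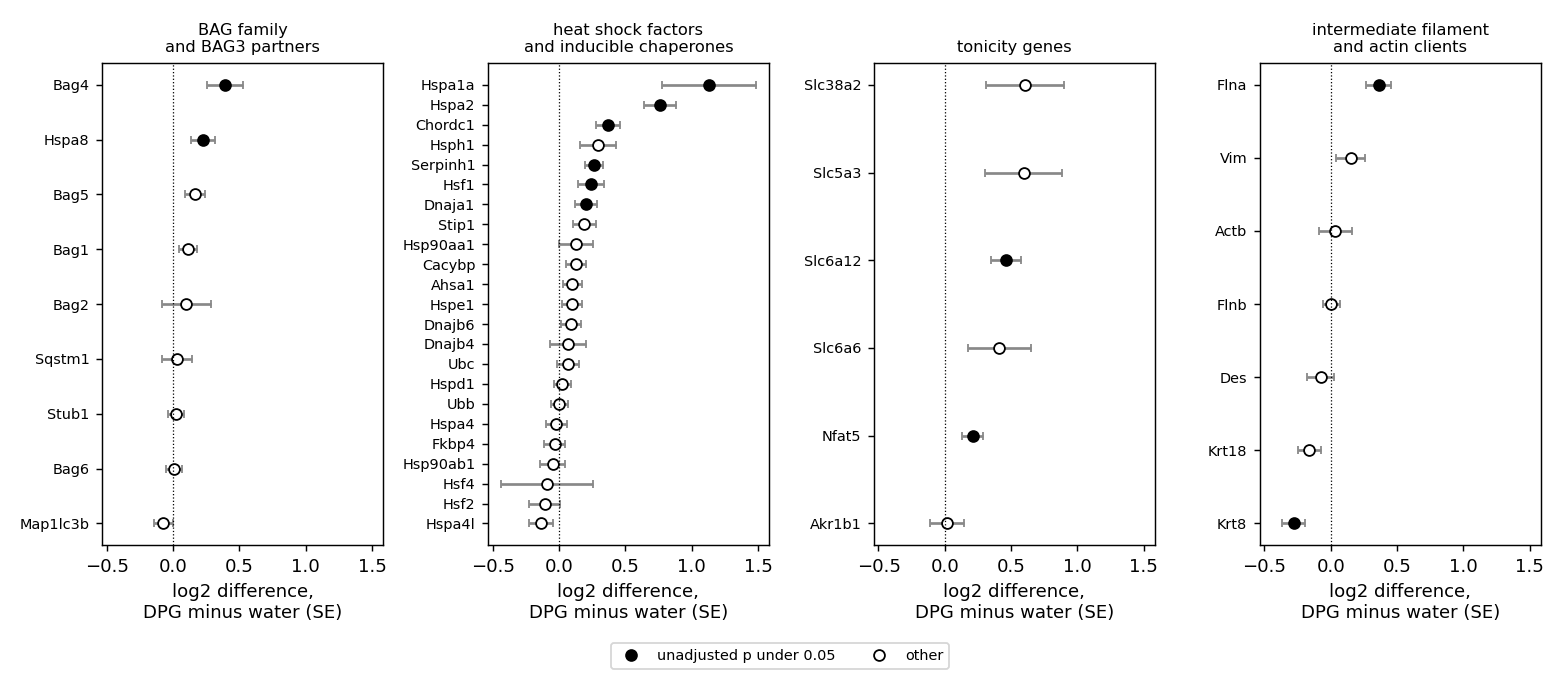
Log2 difference, DPG minus water, with its SE (horizontal axis) for the genes of 4 lists, 1 panel per list; filled points passed an unadjusted p of 0.05 and none passed after adjustment over all probes. Filled points lie above 0 in the first 3 panels, led by Hspa1a at 1.13 and Hspa2 at 0.76.

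Markers that could reflect handling or other cells gave the following values beside the members. Of 9 immediate early genes, 0 passed an unadjusted p of 0.05 on the higher side and 1 on the lower (Fos, -0.41 ± 0.13), with a median of 0.09, and Ier2 had 0.09 ± 0.07. Their summed signal was 21.6 to 25.7 in DPG rats and 19.5 to 23.5 in water rats. The 7 kept muscle markers summed to 1.13 to 1.40 in DPG rats and 1.17 to 1.30 in water rats, with a median of -0.02, and Acta1 had -0.53 ± 0.11 and Tnnt2 0.40 ± 0.09. The 5 kept adipocyte markers had a median of 0.56 with sums of 3.01 to 4.37 in DPG rats and 2.91 to 3.39 in water rats. At an unadjusted p of 0.05, 3 read higher and 1 lower, against 7.19% and 5.27% of all named genes. Adipoq had -0.45 ± 0.14, Retn 1.43 ± 0.50, Fabp4 1.89 ± 0.70 and Cidec 0.56 ± 0.20, and the groups overlapped for Fabp4 and Cidec. Of these sums Cidec alone made up 1.95 to 2.92 in DPG rats and 1.36 to 1.96 in water rats. Retn was well above background on 3 of 3 DPG arrays and 1 of 3 water arrays, so its difference rests on water values near background. The 5 kept leukocyte markers had a median of 0.13 with sums of 99.5 to 134 in DPG rats and 101 to 123 in water rats. Cd3e, well above background on 3 of 3 DPG arrays and 2 of 3 water arrays, had 0.89 ± 0.34. Ptprc had 0.19 ± 0.16, and its 5 kept probes ran from -0.24 to 0.21. The 6 podocyte markers had a median of -0.21 with sums of 29.2 to 36.0 in DPG rats and 31.4 to 39.7 in water rats. Of these sums Podxl (-0.02 ± 0.17) alone made up 15.3 to 20.5 in DPG rats and 15.5 to 21.5 in water rats. All 6 markers were below 0, and for 3 the groups did not overlap, among them Ptpro (-0.22 ± 0.07) and Wt1 (-0.19 ± 0.07). The part of these cells in the values of the members was not tested.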

How the data were processed

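Total RNA was labelled with Cy3 and hybridised to 1 array per rat, per the labels' protocols. The deposited intensity of each spot, background-subtracted and detrended with Agilent Feature Extraction (10.7.1.1 per the file headers, 10.7 per the submitters' processing notes), was not scaled between arrays, per the file headers. The authors' table over all 6 arrays gives the ratio of that intensity to about the 75th percentile of the array, found by setting the columns against the scanner values; their medians were 0.111, 0.108 and 0.112 for DPG 1 to 3 and 0.110, 0.111 and 0.114 for water 1 to 3. It is linear, not centred, and runs the same way; no label or header states how its scale was set.

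Control spots were dropped, log2 intensity was reduced by the 75th percentile of each array, and probes well above background on all 3 arrays of a group with no outlier flag were kept (40383 of 61537). No spot was saturated. Probes were named through RefSeq accessions of GRCr8 (28206 matched 1 symbol); promoters are RefSeq GRCr8. The test was limma's (version 3.58.1, under R 4.3.3, with lmFit and eBayes, two-sided), DPG against water, on every kept probe, with Benjamini-Hochberg adjustment; an exact permutation test of 3 against 3 cannot go below 0.1. The fit was tested on simulated data. Members and gene lists were chosen with earlier results of these data known. Genes of lists are named at an unadjusted p of 0.05, up to 6 a list; Hsf1, Hspa1a, Hspa8, Hsp90aa1, Nfat5 and Cryaa always; Hspb9 and Des were added after their values were seen. Of each marker list the 2 genes with the smallest p are named, and some others were added after their values were seen. The 5 genes most like Hspb1 and Cryab were taken by Pearson correlation. The number of arrays limits the precision. The p-values set each difference against the spread between rats of a group, moderated across probes. They hold no spread between slides or scans, as each slide held 1 group.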

Additional observations from a re-analysis of the deposited data

How the results depend on the processing

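The alternatives were normexp background correction (offset 50, on the median signals), quantile normalization, median scaling, no filter for dim probes, a filter that asks for signal on all 6 arrays, flagged spots kept, the brightest probe per gene, an intensity trend with robust variance, the authors' table, the replicate number as a block, and each rat left out in turn. Slide as a block was not run, as each slide held 1 group. Of 142 values of member probes under these settings, 141 moved by less than 1 SD between rats, and the other was Hspb7 with normexp (-0.24). For many of them this was fixed in advance, so the count is no measure of stability. Leaving out 1 of 3 rats cannot move a difference by that much. The filters, the flagged spots, the brightest probe, the intensity trend and the replicate block leave a probe's difference as it was. Of the 9 probes 1 changed sign, Hspb8, without DPG rat 3 and with normexp. The adjusted p of Hspb1 ranged from 0.0508 (intensity trend) to 0.497, and that of Cryab from 0.163 to 0.541. The number of member probes at an unadjusted p of 0.05 was 4, with the authors' table, flagged spots kept and the stricter filter also 4. It was 2 with no filter on dim probes, where both Hspb2 probes missed that p, 3 with quantile normalization and with the brightest probe per gene, and 5 with median scaling and with the intensity trend. Hspb7, lower in DPG, was the fifth probe there (-1.13 and -1.15), and with normexp it passed and the brighter Hspb2 probe did not, which again made 4. With a rat left out the count ranged from 2 (without DPG rat 1 or DPG rat 2) to 4. Where it was 4, the probes were not those of the main fit, and only 1 Hspb2 probe passed. Hspb7, lower in DPG, was among them without DPG rat 3 (-1.52) and without water rat 1 (-1.39). Bag3 was among them without water rat 2 (0.19). The number of list genes at that p ranged from 7 to 15 with a rat left out. The number of probes past an adjusted p of 0.05 ranged from 0 to 3. It was 1 without DPG rat 2 (probe A_44_P557826) and 3 without water rat 2 (A_64_P009237, A_44_P362016 and A_43_P21640), all named after their values were seen, and 0 in the other settings, while 5008 passed an unadjusted p of 0.05. Groups did not overlap for 11287 (without DPG rat 1) to 13898 probes (without DPG rat 3) with a rat left out, against 7958, as fewer arrays overlap less often. With the replicate number as a block 4084 probes passed an unadjusted p of 0.05 and 3 of them were member probes, Hspb1, Cryab and Hspb7 (-1.15 ± 0.18, lower in DPG), while neither Hspb2 probe passed. The labels do not say that a number pairs rats, and same-numbered rats did not deviate together (r = -0.03, -0.08 and -0.06 across probes). Values near background, as for Hspb7, limit what can be said of that gene.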
